A study of Homo sapiens with 2 samples.

Results

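The genes described here are 9 members of the pathway that presents peptides on major histocompatibility complex (MHC) class I molecules. They were chosen by name from the 58735 genes of each deposited table, after the gene identifiers on the reference chromosomes had been matched to GENCODE release 29 symbols. HLA-B, HLA-C, HLA-E and HLA-F encode heavy chains, B2M the light chain beta-2 microglobulin, TAP1 and TAP2 the peptide transporter, TAPBP the loading factor tapasin, and NLRC5 the transactivator of class I genes. The tested library came from BT549 cells given Wnt3a for 2 h and carrying a short hairpin RNA against the salt-inducible kinase SIK2 (labelled shSIK2). The control library came from BT549 cells with the same Wnt3a treatment and a control hairpin (labelled scrambled). BT549 is a mesenchymal human cell line from a triple-negative breast tumour. Each group held 1 library, so the differences described have no replication and carry no p-value. The labels used here do not say how the hairpin was delivered, how many hairpins were used or whether the cells were a clone. Less RNA per cell and fewer expressing cells cannot be told apart in such bulk libraries.

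Every nucleated cell can show short peptides from its own proteins to CD8 T cells. Peptides cut by the proteasome are pumped into the endoplasmic reticulum by the TAP1 and TAP2 heterodimer, loaded with the help of tapasin onto a heavy chain paired with beta-2 microglobulin, and carried to the cell surface. Tumour cells often show less class I on the surface, and interferons raise the transcription of most of these genes through interferon regulatory factors (IRFs) and NLRC5. HLA-E is a nonclassical heavy chain recognised by the natural killer cell receptor NKG2A, and SIK2 is a kinase better known for holding CREB coactivators in the cytoplasm.

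Gene-assigned reads, recovered from the deposited values, numbered 16347399 for shSIK2 and 18019225 for scrambled. SIK2 itself stood at 3.56 FPKM (fragments per kilobase of exon per unit of depth) in the shSIK2 library and 7.80 FPKM in the scrambled library, 2.19-fold lower (95% counting interval 1.99 to 2.42), though short of 2-fold at equal totals with a log2 ratio of -0.97. VIM, the mesenchymal filament vimentin, was abundant at 283 FPKM and 260.3 FPKM, shSIK2 first, and ESR1, PGR, EPCAM and CDH1 each stayed at or below 0.104 FPKM in both. ERBB2, the HER2 receptor gene that such a line should hold low, stood at 6.75 FPKM in the shSIK2 library and 4.96 FPKM in the scrambled library. CDH2, the mesenchymal N-cadherin, stood at 0.400 FPKM and 2.44 FPKM, shSIK2 first, 6.09-fold lower (4.22 to 9.03). SPARC, a further mesenchymal marker, went the other way, at 188.6 FPKM and 38.1 FPKM, shSIK2 first, 4.95-fold higher (4.76 to 5.14). The mesenchymal markers FN1 and ZEB1 were 1.32-fold (1.26 to 1.39) and 1.14-fold (1.09 to 1.19) lower. None of 15 leukocyte markers and none of 5 endothelial markers reached 1 FPKM in either library. Their summed levels were 0.771 FPKM (leukocyte) and 0.00561 FPKM (endothelial) in the shSIK2 library and 0.609 FPKM and 0.0873 FPKM in the scrambled library. Of the leukocyte markers 11 had 0 reads in both libraries, among them CD3E, MS4A1, NKG7 and LYZ. The others were CD14 (18 and 17 reads, shSIK2 first), ITGAM (12 and 4), CSF1R (7 and 1) and PTPRC (2 and 5). The endothelial markers PECAM1 and CDH5 had 0 reads in both libraries. TEK had 0 and 5 reads, KDR 0 and 3 and VWF 1 and 0, shSIK2 first. Fibroblast markers, which mesenchymal tumour cells share, had a summed level of 121.4 FPKM in the shSIK2 library and 25.7 FPKM in the scrambled library. COL3A1 carried most of it, at 112.2 FPKM and 21.5 FPKM, whereas COL1A2 had 5 reads and 23 reads, shSIK2 first. The part of these markers in the class I values was not tested.

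The upstream sequences of HLA-B, HLA-C and B2M are printed because all 3 genes were lower in the shSIK2 library and because interferon, NF-kB and NLRC5 act on this stretch. They come from RefSeq on GRCh38.p14, on the strand of the gene, 5′ to 3′, from 250 bases before the RefSeq start up to the first base that GENCODE places in an exon. Capitals mark matches on either strand to an IRF word (GAANNGAAA, or GAAA followed by any 2 bases and GAAA again), the NF-kB consensus, the X2 box word TGACG and the CCAAT word of the Y box; some matches overlap. HLA-B lies at chr6:31357189-31357429 (minus strand), HLA-C at chr6:31272131-31272342 (minus strand) and B2M at chr15:44711267-44711486 (plus strand).
HLA-B: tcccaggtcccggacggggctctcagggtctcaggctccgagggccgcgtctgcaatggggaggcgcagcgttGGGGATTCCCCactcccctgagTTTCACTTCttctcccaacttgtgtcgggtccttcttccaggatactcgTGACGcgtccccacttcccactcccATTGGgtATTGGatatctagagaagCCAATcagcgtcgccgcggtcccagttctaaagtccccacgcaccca
HLA-C: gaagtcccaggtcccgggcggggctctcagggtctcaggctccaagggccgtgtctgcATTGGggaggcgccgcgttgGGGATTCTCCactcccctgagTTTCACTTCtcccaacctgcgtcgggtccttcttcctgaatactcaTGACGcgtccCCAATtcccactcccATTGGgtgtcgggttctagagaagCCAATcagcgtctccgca
B2M: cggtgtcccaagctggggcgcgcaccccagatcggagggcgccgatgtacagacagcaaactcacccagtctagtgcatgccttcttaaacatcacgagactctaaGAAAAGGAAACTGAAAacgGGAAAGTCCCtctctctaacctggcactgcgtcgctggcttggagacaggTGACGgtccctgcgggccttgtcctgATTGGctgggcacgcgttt

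Of the 9 genes, 7 had a promoter in the RefSeq table, and HLA-E and NLRC5 had none. Over the full window of 250 bases before to 50 after the start, the HLA-B and HLA-C promoters were identical at 269 of 304 aligned positions (88.5%), whereas HLA-B and B2M shared 49.4%. An IRF word of either spelling was found in all 7 member windows, against 10.6% of 35114 windows of the same length. The NF-kB consensus was found in 5 of the 7 (11.3% of all windows), TGACG in 4 (24.6%) and CCAAT in 5 (34.6%). HLA-B, HLA-C and B2M held all 4 motifs, a combination present in 9 windows in all. These words were picked with class I promoters in view, the first IRF spelling after reading the member windows, so the shares describe the sequences only.

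The IRF words of the transporter and tapasin genes are shown because TAP1 and TAP2 differed in direction while both hold the same word. Here capitals mark the longer IRF word on either strand, and the stretches lie at chr6:32853817-32853844, chr6:32838779-32838806 and chr6:33314077-33314104, all on the minus strand and written on it. Unlike the stretches above, these were not cut at the first annotated exon base. Those of TAP1 and TAPBP lie within the genes as GENCODE places them, and that of TAP2 overlaps the first bases of its gene. For TAP1 the first of 2 listed RefSeq starts was used.
TAP1: ggccgcTTTCGATTTCGCTTTCccctaa
TAP2: tggggaagcGAAAGCGAAAgctgcccga
TAPBP: ttggagGAAAGTGAAAGTGAAAggagga

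The 8 class I genes that could be measured split evenly. HLA-B, HLA-C, B2M and TAP2 were lower in the shSIK2 library, and HLA-E, TAP1, TAPBP and NLRC5 were higher. None reached 2-fold in either direction. A gene counted as measured when its higher value was 1 FPKM or more. HLA-F did not pass, and NLRC5 passed through the shSIK2 library alone. Among all 12866 measured genes 8.28% were at least 2-fold lower and 11.0% at least 2-fold higher, on log2 of FPKM plus 0.1. When both libraries were set to equal total reads, those shares were 6.06% and 13.4%, and still 0 of the 8 were past 2-fold in either direction. At 1.5-fold on the same log2 scale, B2M was the 1 lower gene (21.3% of all measured genes) and TAP1 the 1 higher gene (19.7%). NLRC5 was 1.55-fold higher by reads but at 0.57 on that scale, short of the mark. The 1.5-fold calls moved with the processing. At equal totals 0 genes were lower (15.8% of all) and 3 higher (24.0%), TAP1, NLRC5 and TAPBP. With the trend in GC content and exon length removed 2 were lower (21.4%), HLA-B and HLA-C, and 1 higher (17.2%), TAP1. Fewer reads in the shSIK2 library were seen for 4 of the 8 (55.9% of all measured genes) and more reads for 4 of the 8 (43.6%). The median log2 ratio of the 8 was 0.04, inside a gap between -0.36 and 0.43 that holds none of them, beside -0.11 over all measured genes.

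All 8 differences were larger than counting error, with the 95% interval of the read ratio wholly below 1 for 4 genes (42.9% of all measured genes) and wholly above 1 for 4 genes (30.4%). Of all measured genes 73.3% passed that mark, so it separates these genes little from others. It covers sampling of reads alone, not variation between cultures. The direction of each of the 8 was the same under every scaling, pseudocount and trend correction tried.

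**Figure D1:**
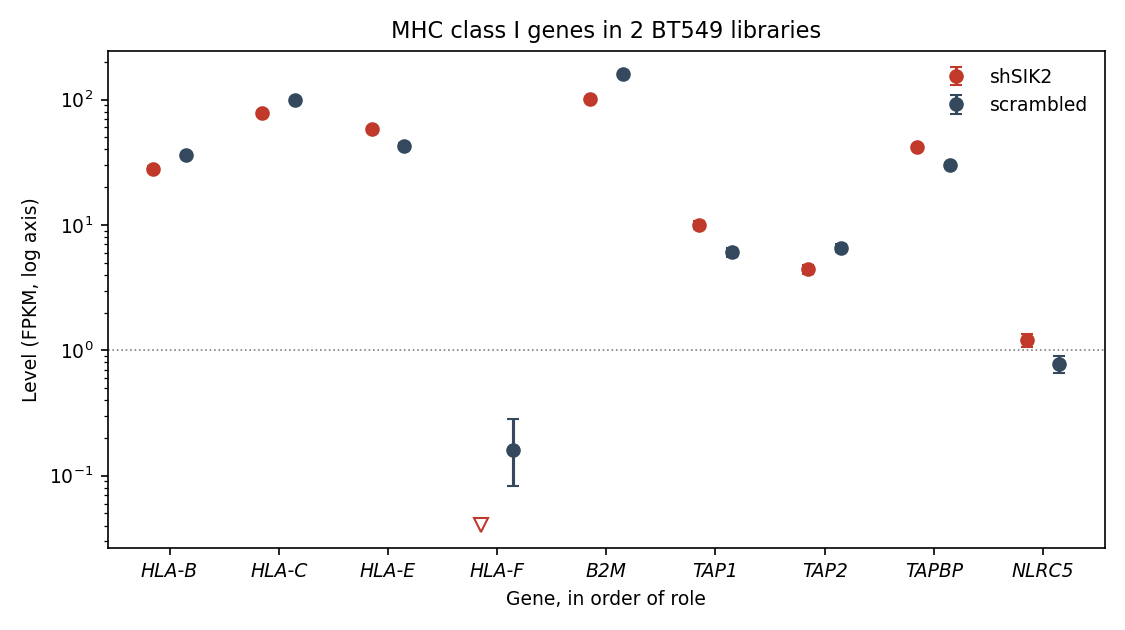
Level in FPKM (log axis) of each class I gene in the shSIK2 library (red, left of each pair) and the scrambled library (dark, right), with exact Poisson 95% counting intervals, 1 library per group. The open triangle is the level that 0 reads of HLA-F allow (0.0403 FPKM), the dotted line is the minimum of 1 FPKM, and B2M is the highest gene in both libraries.

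B2M, the light chain that every class I heavy chain needs to leave the endoplasmic reticulum, was the most abundant member in both libraries. The gene (ENSG00000166710, chromosome 15, 44711487 to 44718877 on GRCh38) had 10556 reads in the shSIK2 library and 16637 in the scrambled library. Its levels were 101.2 FPKM (95% Poisson interval 99.3 to 103.1) and 159.5 FPKM (157.0 to 161.9), shSIK2 first. B2M was 1.58-fold lower (1.54 to 1.62), the lowest ratio of the 8 as deposited, where 18.4% of all measured genes had a lower one. With the GC and length trend removed, HLA-B and HLA-C lay lower than B2M.

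HLA-B and HLA-C, the classical heavy chains, were lower by nearly the same factor. HLA-C (ENSG00000204525, chromosome 6, 31268749 to 31272130) stood at 77.5 FPKM in the shSIK2 library and 99.5 FPKM in the scrambled library, with 3333 and 4281 reads, 1.28-fold lower (1.23 to 1.34). HLA-B (ENSG00000234745, chromosome 6, 31269491 to 31357188) stood at 28 FPKM and 35.9 FPKM, shSIK2 first, with 1466 and 1878 reads, also 1.28-fold lower (1.20 to 1.37). The HLA-B level was 0.361 of the HLA-C level in the shSIK2 library and 0.360 in the scrambled library, and the quotient of these ratios was 1.003 (0.923 to 1.09). Reads of the class I heavy chains can be divided wrongly between them, because the genes are alike and a cell line's alleles differ from the reference genome. With HLA-B and HLA-C reads summed the difference was 1.28-fold (1.24 to 1.33). In the annotation 18.9% of HLA-B exon bases lie under another gene, including 35 bases shared with HLA-C and 542 with an opposite-strand pseudogene that had 0 reads in both libraries.

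HLA-E differed from the classical heavy chains in direction. This gene (ENSG00000204592, chromosome 6, 30489467 to 30494205) stood at 58.0 FPKM (56.0 to 60.2) in the shSIK2 library and 42.9 FPKM (41.2 to 44.8) in the scrambled library. Its 2963 and 2193 reads gave a ratio 1.35-fold higher (1.28 to 1.43), and no exon base is shared with another gene. Set against HLA-C within each library, which needs no scaling between them, HLA-E was at 0.749 of its level in the shSIK2 library and 0.432 in the scrambled library. That quotient was 1.74-fold higher in the shSIK2 library (1.61 to 1.87). Against B2M the HLA-E level was 0.574 in the shSIK2 library and 0.269 in the scrambled library, 2.13-fold higher (2.00 to 2.26).

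HLA-F, a heavy chain with limited surface expression, was close to undetected. The gene (ENSG00000204642, chromosome 6, 29722775 to 29738528) had 0 reads in the shSIK2 library, which allows up to 0.0403 FPKM at 3 reads, and 12 reads (0.161 FPKM) in the scrambled library. It was at least 4-fold lower against that allowance, and the exact interval of the read ratio starts at 2.78-fold. Opposite-strand genes, among them HLA-F-AS1 with 0 reads in both libraries, cover 28.5% of its exon bases, and no source used here says whether reads were counted by strand.

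The summed level of HLA-B, HLA-C and HLA-E was 1.62 times that of B2M in the shSIK2 library and 1.12 times in the scrambled library. HLA-C alone was at 0.766 of the B2M level in the shSIK2 library and 0.624 in the scrambled library, a quotient of 1.23 (1.17 to 1.29). As deposited, these heavy chain transcripts were thus higher relative to the light chain in the shSIK2 library. That included HLA-C, whose own level was lower there. With the GC and length trend removed, HLA-C (log2 ratio -0.69) and HLA-B (-0.68) lay below B2M (-0.47). On that scale HLA-C and HLA-B were lower relative to the light chain, and HLA-E (0.15) was higher.

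The subunits of the peptide transporter lay on opposite sides. TAP1 (ENSG00000168394, chromosome 6, 32845209 to 32853978) stood at 9.96 FPKM (9.29 to 10.7) in the shSIK2 library and 6.05 FPKM (5.53 to 6.61) in the scrambled library, with 821 and 499 reads, 1.65-fold higher (1.47 to 1.84). TAP2 (ENSG00000204267, chromosome 6, 32821833 to 32838780) stood at 4.41 FPKM (4.03 to 4.82) and 6.57 FPKM (6.09 to 7.06), shSIK2 first, with 484 and 720 reads, 1.49-fold lower (1.32 to 1.67). TAP1 had the highest ratio of the 8 genes as deposited, and 83.3% of all measured genes had a lower one. The level of TAP1 was 2.26 times that of TAP2 (2.01 to 2.53) in the shSIK2 library and 0.922 times (0.821 to 1.03) in the scrambled library, so the subunits did not differ beyond counting error in the scrambled library. Between libraries this quotient was 2.45-fold higher in the shSIK2 library (2.08 to 2.88). In the annotation 32.3% of TAP2 exon bases are shared with a same-strand coding gene that had 0 reads in both libraries, and 9.49% of TAP1 exon bases with the antisense transcript PSMB8-AS1 (25 reads in the shSIK2 library and 15 in the scrambled library). With all reads of a gene kept and only exon bases that no other gene covers taken as its length, TAP1 stood at 11.0 FPKM and 6.69 FPKM and TAP2 at 6.52 FPKM and 9.70 FPKM, shSIK2 first, on which scale TAP2 was above TAP1 in the scrambled library. This scale takes no read to lie on the shared bases, which the files do not show.

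TAPBP encodes tapasin, which holds an empty class I molecule to the transporter until a fitting peptide binds. The gene (ENSG00000231925, chromosome 6, 33299694 to 33314387) stood at 41.8 FPKM (40.4 to 43.2) in the shSIK2 library and 30.2 FPKM (29 to 31.3) in the scrambled library. Its 3627 and 2618 reads gave a ratio 1.39-fold higher (1.32 to 1.46), close to that of HLA-E. NLRC5, a NOD-like receptor that acts in the nucleus on class I promoters, was the lowest measured member. This gene (ENSG00000140853, chromosome 16, 56989485 to 57083531) had 255 reads (1.20 FPKM) in the shSIK2 library and 165 reads (0.776 FPKM) in the scrambled library, 1.55-fold higher (1.27 to 1.89).

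By level, the order in the shSIK2 library was B2M, HLA-C, HLA-E, TAPBP, HLA-B, TAP1, TAP2, NLRC5 and HLA-F. In the scrambled library HLA-B stood above TAPBP and TAP2 above TAP1, and the remaining places were the same. TAP2 and TAP1 in the scrambled library were the 1 pair of neighbours whose Poisson intervals overlapped. Per exon base that no other gene covers, with all reads kept, HLA-B stood at 34.5 FPKM in the shSIK2 library and 44.2 FPKM in the scrambled library, which would place it above HLA-E (42.9 FPKM, interval 41.2 to 44.8) in the scrambled library, within the counting error of HLA-E.

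**Figure D2:**
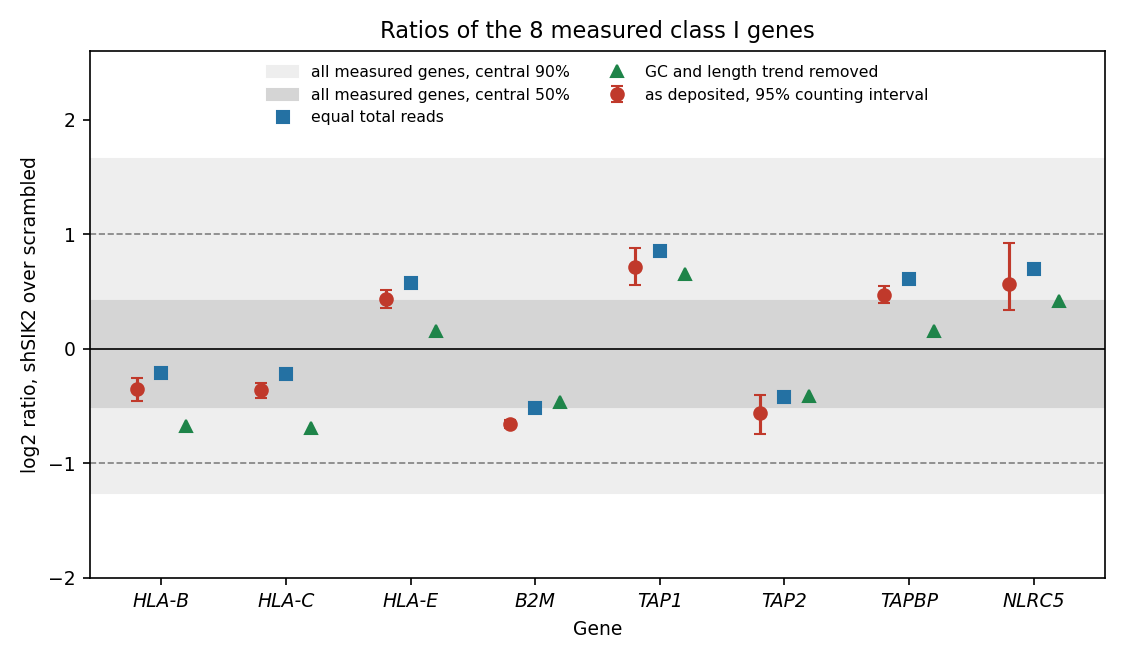
Log2 ratio of shSIK2 over scrambled for the 8 measured genes, as deposited with 95% counting intervals (circles), after scaling to equal total reads (squares) and after removal of the trend with GC content and exon length (triangles). Dashed lines mark 2-fold and grey bands the central 50% and 90% of all measured genes; HLA-B, HLA-C, B2M and TAP2 lie below 0 and the other 4 above 0 on each scale.

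The ratio of a gene moved with its GC content in these libraries, and the class I genes range widely in it. Across all measured genes, which are not independent replicates, the Spearman rho between GC content and log2 ratio was 0.28. B2M had the lowest GC content of the 8 (40.6%) and genes in the same one of 20 GC bins had a median log2 ratio of -0.27, against -0.66 for B2M. HLA-B (60.1%) and HLA-C (61.3%) lay in a bin with a median of 0.21 and were at -0.36 each. TAPBP (60.8%) lay in that same bin and was at 0.47.

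With the trend in GC content and exon length removed, HLA-B and HLA-C moved away from 0, to -0.68 and -0.69 on the log2 scale. HLA-E and TAPBP moved towards 0, to 0.15 and 0.15, while TAP1 (0.65), NLRC5 (0.41), TAP2 (-0.41) and B2M (-0.47) moved less. The opposite directions of HLA-E and HLA-C, and of TAP1 and TAP2, were thus also present on this scale. Whether GC content plays a part in the class I ratios was not tested.

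**Figure D3:**
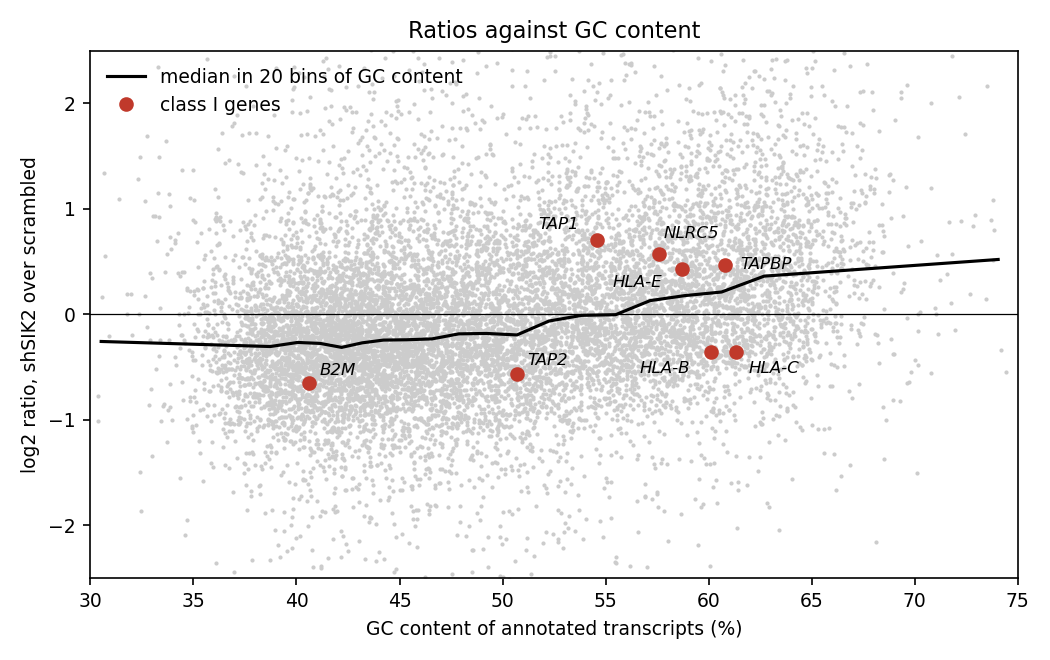
Log2 ratio of shSIK2 over scrambled against GC content of annotated transcripts (%) for all measured genes (grey) and the 8 class I genes (red); the black line joins medians in 20 bins of GC content. HLA-B and HLA-C lie below the line, B2M and TAP2 below it at lower GC content, and TAP1, NLRC5, HLA-E and TAPBP above it; genes beyond the axes are not shown.

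Of the 9 genes, 7 lie in the MHC on chromosome 6. Within 250 kb of a member start, 59 further genes were measured. Of these, 1 was at least 2-fold lower (1.69%, beside 8.28% of all measured genes). A further 6 were at least 2-fold higher (10.2%, beside 11.0%). The 48 neighbours on chromosome 6 had a median log2 ratio of 0.28, which became 0.01 with the GC and length trend removed. All measured genes had a median of -0.11 on both scales, and the other genes of chromosome 6 had -0.02 and 0.03. HLA-B and HLA-C were lower while their nearest measured coding neighbours were higher, TCF19 1.76-fold (1.56 to 1.98) and MICA 1.48-fold (1.32 to 1.66). Next to B2M on chromosome 15, SPG11 was 0.736 times (0.669 to 0.808) and TRIM69 0.878 times (0.747 to 1.03) its scrambled level. HERPUD1, a neighbour of NLRC5 and a stress gene of the endoplasmic reticulum, was 1.87-fold higher (1.78 to 1.95), and CPNE2 on the other side 1.15-fold higher (1.02 to 1.30). Around HLA-E, GNL1 was 1.32-fold higher (1.22 to 1.42) and TRIM39 stood at 0.733 times its scrambled level (0.579 to 0.925), and around HLA-F, GABBR1 was at 1.01 times (0.859 to 1.20). For TAPBP, RGL2 was 1.20-fold higher (1.10 to 1.32) and ZBTB22 at 0.711 times its scrambled level (0.565 to 0.893).

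TAP2, PSMB8, PSMB9 and TAP1 lie side by side in one stretch of the MHC, and TAP1 and PSMB9 are transcribed from a shared bidirectional promoter. PSMB8 and PSMB9 encode interferon-inducible catalytic subunits of the immunoproteasome, which trims proteins to peptides suited to class I. PSMB8 stood at 17.0 FPKM in the shSIK2 library and 11.3 FPKM in the scrambled library, 1.51-fold higher (1.36 to 1.68). PSMB9 stood at 3.49 FPKM and 2.73 FPKM, shSIK2 first, 1.28-fold higher (1.02 to 1.60). TAP2 was thus the 1 gene of the 4 that was lower. Beyond the block, BRD2 was at 0.966 times its scrambled level (0.916 to 1.02) and PBX2 at 0.967 times (0.894 to 1.05). The 6 measured genes of the immunoproteasome and the PA28 activator all lay within 2-fold, with a median log2 ratio of 0.17 (all measured genes -0.11). Of all measured genes 8.28% were at least 2-fold lower and 11.0% higher. PSMB10, the remaining inducible subunit, was at 1.23 times its scrambled level (0.790 to 1.93).

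Chaperones that fold and load class I molecules showed no 2-fold difference. Of 7 measured loading complex partners, 0 were past 2-fold in either direction, beside 8.28% lower and 11.0% higher among all measured genes. The median log2 ratio was -0.12, beside -0.11. HSPA5, the general chaperone BiP of the endoplasmic reticulum, came nearest, at 729.8 FPKM in the shSIK2 library and 1439 FPKM in the scrambled library, 1.97-fold lower (1.95 to 1.99). CALR, the chaperone calreticulin that binds class I with tapasin, was 1.37-fold higher (1.34 to 1.39). TAPBPL, a second peptide editor related to tapasin, had 51 reads in the shSIK2 library and 68 in the scrambled library, a ratio of 0.750 (0.511 to 1.09).

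The 8 measured peptidases that trim class I peptides also lay within 2-fold as deposited, with a median log2 ratio of -0.05. Among all measured genes 8.28% were at least 2-fold lower and 11.0% higher. LNPEP, an endosomal aminopeptidase used in cross-presentation, was 1.83-fold higher (1.68 to 2.00). Its log2 ratio was past 2-fold with the GC and length trend removed, at 1.06, but short of it at equal totals, at 0.99. NRDC, a cytosolic metallopeptidase, was 1.35-fold lower (1.30 to 1.39) and BLMH, bleomycin hydrolase, 1.23-fold higher (1.10 to 1.37). ERAP1, the main trimming peptidase of the endoplasmic reticulum, stood at 10.1 FPKM in the shSIK2 library and 11.3 FPKM in the scrambled library.

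Of 6 measured class I-like genes, 5 had more reads in the shSIK2 library, beside 43.6% of all measured genes. None was past 2-fold as deposited (8.28% lower and 11.0% higher among all measured genes), and the median was 0.53. FCGRT, the neonatal Fc receptor chain that pairs with beta-2 microglobulin, was 1.92-fold higher (1.62 to 2.28). Its log2 ratio was past 2-fold at equal totals, at 1.06, but 0.62 with the GC and length trend removed. MICA and MICB, stress-induced ligands of the natural killer cell receptor NKG2D that do not use beta-2 microglobulin, were both 1.48-fold higher (1.32 to 1.66 and 1.30 to 1.70). Reads may be divided wrongly between MICA and MICB, since these genes are alike. HLA-G had 0 reads in both libraries.

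Of 13 measured regulators of class I transcription other than NLRC5, 12 had fewer reads in the shSIK2 library, beside 55.9% of all measured genes. At equal totals 11 of the 13 lay below 0, where the median log2 ratio of all measured genes was 0.03. In this list 1 gene was at least 2-fold lower and 0 higher, beside 8.28% and 11.0% of all measured genes, and the median log2 ratio was -0.40. The 1 gene past 2-fold was EZH2, the histone methyltransferase of Polycomb complex 2 that represses class I genes in several tumours, at 12.2 FPKM and 24.7 FPKM, shSIK2 first, 2.03-fold lower (1.87 to 2.19). At equal totals EZH2 was short of 2-fold, with a log2 ratio of -0.87. ATF1 and NFKB1, transcription factors of the CREB and NF-kB families, were 1.78-fold (1.60 to 1.97) and 1.75-fold (1.60 to 1.90) lower. RFX5, the DNA-binding partner of NLRC5 at the X box, was 1.32-fold lower (1.25 to 1.40). IRF1, an interferon-induced activator of class I genes, stood at 8.83 FPKM in the shSIK2 library and 11.2 FPKM in the scrambled library, 1.27-fold lower (1.17 to 1.37).

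Interferon signalling genes contained the largest difference among the genes considered. IFNB1, which encodes interferon beta, had 3 reads in the shSIK2 library and 405 in the scrambled library, 135-fold lower (45.9 to 657). Of 9 measured genes in this list, 2 were at least 2-fold lower (8.28% of all measured genes), 0 higher (11.0%), and the median was -0.11. JAK2, a kinase of the interferon gamma receptor, was 2.12-fold lower (1.94 to 2.32), but short of 2-fold at equal totals with a log2 ratio of -0.93. STAT2, part of the type I interferon transcription complex, was 1.84-fold higher (1.62 to 2.10) and reached 2-fold at equal totals. The receptor chains IFNGR1 and IFNGR2 were 1.65-fold (1.57 to 1.74) and 1.49-fold (1.29 to 1.74) higher. The 8 measured class I genes all lay within 2-fold, and 4 of them were higher; the part of interferon beta in their values was not tested.

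Genes that remove class I molecules from the surface or the secretory pathway gave 1 gene at least 2-fold higher and 0 lower among 7 measured, with a median of -0.51. The shares over all measured genes were 11.0% higher and 8.28% lower. MARCH9, a membrane ubiquitin ligase that can take class I from the cell surface, had 351 reads in the shSIK2 library and 118 in the scrambled library, 2.97-fold higher (2.41 to 3.70). SPPL3, a Golgi protease that governs glycolipids shielding class I, was 1.75-fold lower (1.58 to 1.94). SUSD6, TMEM127 and WWP2 form a complex that targets class I for lysosomal degradation. SUSD6 was 1.54-fold higher (1.32 to 1.79), whereas TMEM127 was 1.61-fold (1.47 to 1.76) and WWP2 1.57-fold (1.33 to 1.86) lower.

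None of the 14 genes of MHC class II presentation reached 1 FPKM in either library. The class II transactivator CIITA had 62 reads in the shSIK2 library and 112 in the scrambled library, and CD74, the invariant chain, 4 and 22. HLA-DOB, a chain of the class II modulator HLA-DO, had 30 reads in the shSIK2 library and 11 in the scrambled library, 2.73-fold higher (1.33 to 6.03). Over the list the summed level was 1.75 FPKM in the shSIK2 library and 2.05 FPKM in the scrambled library.

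**Figure D4:**
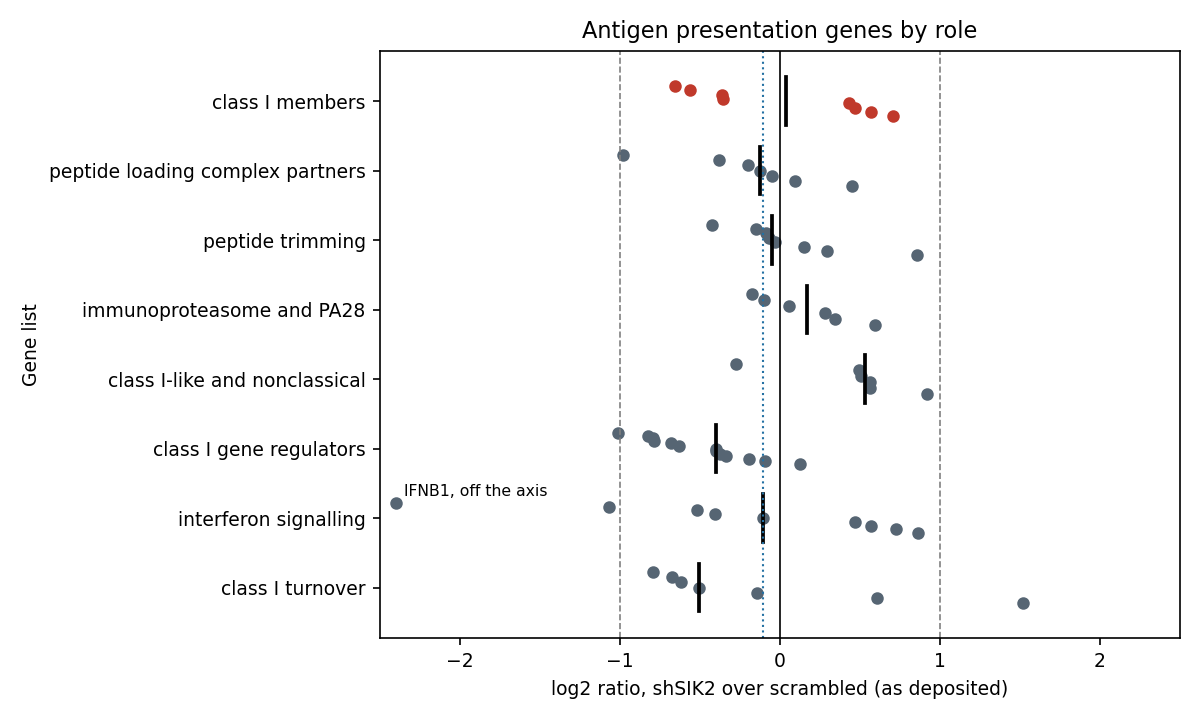
Log2 ratio of shSIK2 over scrambled, as deposited, for each measured gene of the class I members (red) and of 7 other lists (dark); thick bars are list medians, the dotted line is the median of all measured genes and dashed lines mark 2-fold. The members fall into 4 genes below and 4 above 0, 12 of 13 regulators lie below 0 and IFNB1 is drawn at the left edge.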

How the data were processed

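RNA was extracted with Trizol and sequenced from libraries made by standard Illumina protocols, per the labels' protocols. The submitters' processing notes name HISAT2 2.0.5 and hg18. No source used here gives the counter, annotation or strandedness. Each deposited table holds FPKM values, per the file headers. All 58735 identifiers matched GENCODE release 29 (GRCh38), the source of symbols, exon lengths, GC content and coordinates; the aligned build is not settled.

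Deposited FPKM times exon length gave whole multiples of 58.3 for 100% of values above 0 in both tables (tolerance 0.001). These multiples were taken as reads. The step is equal in both tables, so the FPKM values were not scaled to each library's own total; equal totals add 0.14 to each log2 ratio and move the median of measured genes to 0.03.

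No test was possible on single libraries. Ratios are shSIK2 over scrambled on log2(FPKM + 0.1), which understates low genes, for genes whose higher value was 1 FPKM or more. Printed folds are read ratios with exact conditional (Clopper-Pearson) 95% intervals. Ratios of ratios have exact conditional odds ratio intervals. A 0 is bounded at 3 reads. Since reads can be copies of one molecule, these bounds describe counting error alone. The members, lists, thresholds and rules were chosen with earlier results of these data known. Named genes are the members, SIK2, from each list the measured genes past 2-fold, filled up to 3 with those furthest from 0, and the nearest measured coding neighbours; ERAP1, HLA-G, RFX5, IRF1, IFNGR1, IFNGR2, SUSD6, WWP2, CIITA, CD74, HLA-DOB and the markers shown were named after their values were seen. 1 nearest neighbour of HLA-F and some list genes are not reported here. Alternatives covered scaling, pseudocount, minimum level, fold and trend. Calls and intervals were tested on simulated data. Python 3.11.15, numpy 2.4.6, pandas 2.3.3 and scipy 1.17.1 were used.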

Additional observations from a re-analysis of the deposited data

How the results depend on the processing

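Each of the 8 measured genes kept its direction under all 6 alternative settings of scaling, pseudocount and trend. The log2 ratio of HLA-B ranged from -0.68 to -0.22, HLA-C from -0.69 to -0.22, B2M from -0.66 to -0.47, TAP2 from -0.57 to -0.41, HLA-E from 0.15 to 0.57, TAPBP from 0.15 to 0.61, NLRC5 from 0.31 to 0.70 and TAP1 from 0.64 to 0.85.

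The median over the measured members, 0.04 as deposited, was less stable, since it lies in the gap between the lower and the higher genes. It was 0.18 at equal totals, 0.15 at an equal median, 0.14 with trimmed mean scaling, -0.13 with the GC and length trend removed, and -0.36 both with no minimum level (which adds HLA-F) and with a minimum of 5 FPKM (which drops NLRC5). The number at least 2-fold lower was 0 as deposited and 1 with no minimum level (HLA-F). A 1.5-fold rule gave 1 lower and 1 higher as deposited. In alternatives chosen after seeing the data, it gave 0 lower and 3 higher at equal totals, and 2 lower and 1 higher with the GC and length trend removed. Summing HLA-B and HLA-C reads, also chosen after seeing the data, gave -0.36. No paired analysis was possible because each group held 1 library, and for the same reason no library could be left out. Depth limits HLA-F, for which a bound alone can be given, and most class II genes, which had few or 0 reads.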
